A study of Pyrus betulifolia with 6 samples.

Results

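Heat shock proteins are molecular chaperones, which bind unfolded or aggregating proteins and help them to refold. They fall into families. The small heat shock proteins (small HSP) hold unfolded proteins in oligomers without using ATP, whereas HSP70 and HSP90 work in ATP-driven cycles. Their genes are controlled by heat factors, the transcription factors of the HSF family, which plants carry in classes A, B and C. In Arabidopsis the class A1 factors start the heat response, A2 and A3 extend it, and several class B factors act as repressors.

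The genes described here were those whose protein database text in the deposited annotation named a heat shock protein, a heat shock factor, a heat stress transcription factor, a heat shock cognate or a class I heat shock protein. This rule used no expression value, and it found 100 of the 37815 genes in the table. They were 40 small HSP genes, 13 HSP70 genes, 6 HSP90 genes, 35 heat factor genes and 6 genes of proteins that act on these, called cofactors below. The 13 HSP70 genes are those described as heat shock cognate 70 kDa proteins. Genes described only as "heat shock 70 kDa protein" lie outside the rule and are given as a related list. The grouping was checked against the protein domains of the annotation, which the rule did not use. All 40 small HSP genes carried the HSP20 domain, all 35 heat factors the HSF DNA-binding domain, all 13 HSP70 genes the HSP70 domain and all 6 HSP90 genes the HSP90 domain. LOC125480122, counted as a small HSP, is described in the table both as a class I small HSP and as a glutathione S-transferase.

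Root tips came from wild-type seedlings of the pear rootstock P. betulaefolia, raised from seed and grown in nutrient solution. The control received 0.045 mM boron and the B deficiency group 0 mM boron for 24 h, with 3 libraries each, labelled as biological replicates. The groups are written below as without B and with B. The labels name no heat treatment. Plants were moved to solution once a few leaves had expanded. Their exact age and the number of plants behind a library are not given in the sources used here.

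Expression was given as FPKM, a measure of fragments scaled to transcript length and library depth. FPKM summed to between 951246 and 971102 per library, and between 31364 and 31645 genes were above 0. Across all genes in the table, log2(FPKM + 0.1) correlated at 0.986 between any pair of control libraries. B deficiency library 2 correlated with libraries 1 and 3 at 0.979 and 0.980, and those with each other at 0.9855. All 9 root tip marker genes, among them PLETHORA, SHORT-ROOT and SCARECROW regulators of the root meristem and its patterning, were detected. None was called, and they summed to 79.8, 87.9 and 81.8 FPKM without B, against 96.4, 97.0 and 100.4 FPKM with B. Of 48 leaf genes for photosynthesis, 5 were listed at 0 everywhere, 23 were tested and 6 of these were called lower (26.1%, against 3.83% of all genes, by the rule for calls given below). The list summed to between 606 and 663 FPKM without B, against 625 to 653 FPKM with B. A small chain gene of Rubisco, LOC103928816, held most of this with a mean of 532 FPKM over the 6 libraries and a log2 fold change of 0.08. The other leaf genes summed to between 83.6 and 100.2 FPKM without B, against 115 to 130 FPKM with B. The part of these shifts in the results on heat shock genes was not tested, and in whole root tips fewer cells of a type cannot be told apart from less RNA per cell.

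Of the 100 members, 80 averaged 0.5 FPKM or more across the libraries and were tested. The other 20 were 17 small HSP genes, 2 heat factors and 1 HSP70 gene. Of these, 7 were listed at 0 in all 6 libraries, and the highest mean was 0.325 FPKM. A gene was called higher or lower where the log2 fold change reached 1 in size and limma gave an adjusted p under 0.05, with Benjamini-Hochberg adjustment over all 28129 genes tested. All fold changes are B deficiency relative to the control on log2(FPKM + 0.1), a scale that understates the change of genes at low FPKM. In B deficiency, 6 members were called higher, 7.5% of those tested against 4.37% of all genes, and 1 member was called lower, 1.25% against 3.83%. With a pseudocount of 1, the count called higher was 3. The median log2 fold change of the members was 0.01, and that of all genes tested was -0.05. Of the members, 71.2% changed by less than 0.5 on the log2 scale, against 74.8% of all genes. Without the minimum fold, 17 members were higher (21.2% against 12.0% of all genes) and 2 were lower (2 of 80, against 15.4%). Every B deficiency library lay above every control library in 23 members (28.7%, against 18.5% of all genes tested) and below them in 10 of 80 (against 26.6%).

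**Figure D1:**
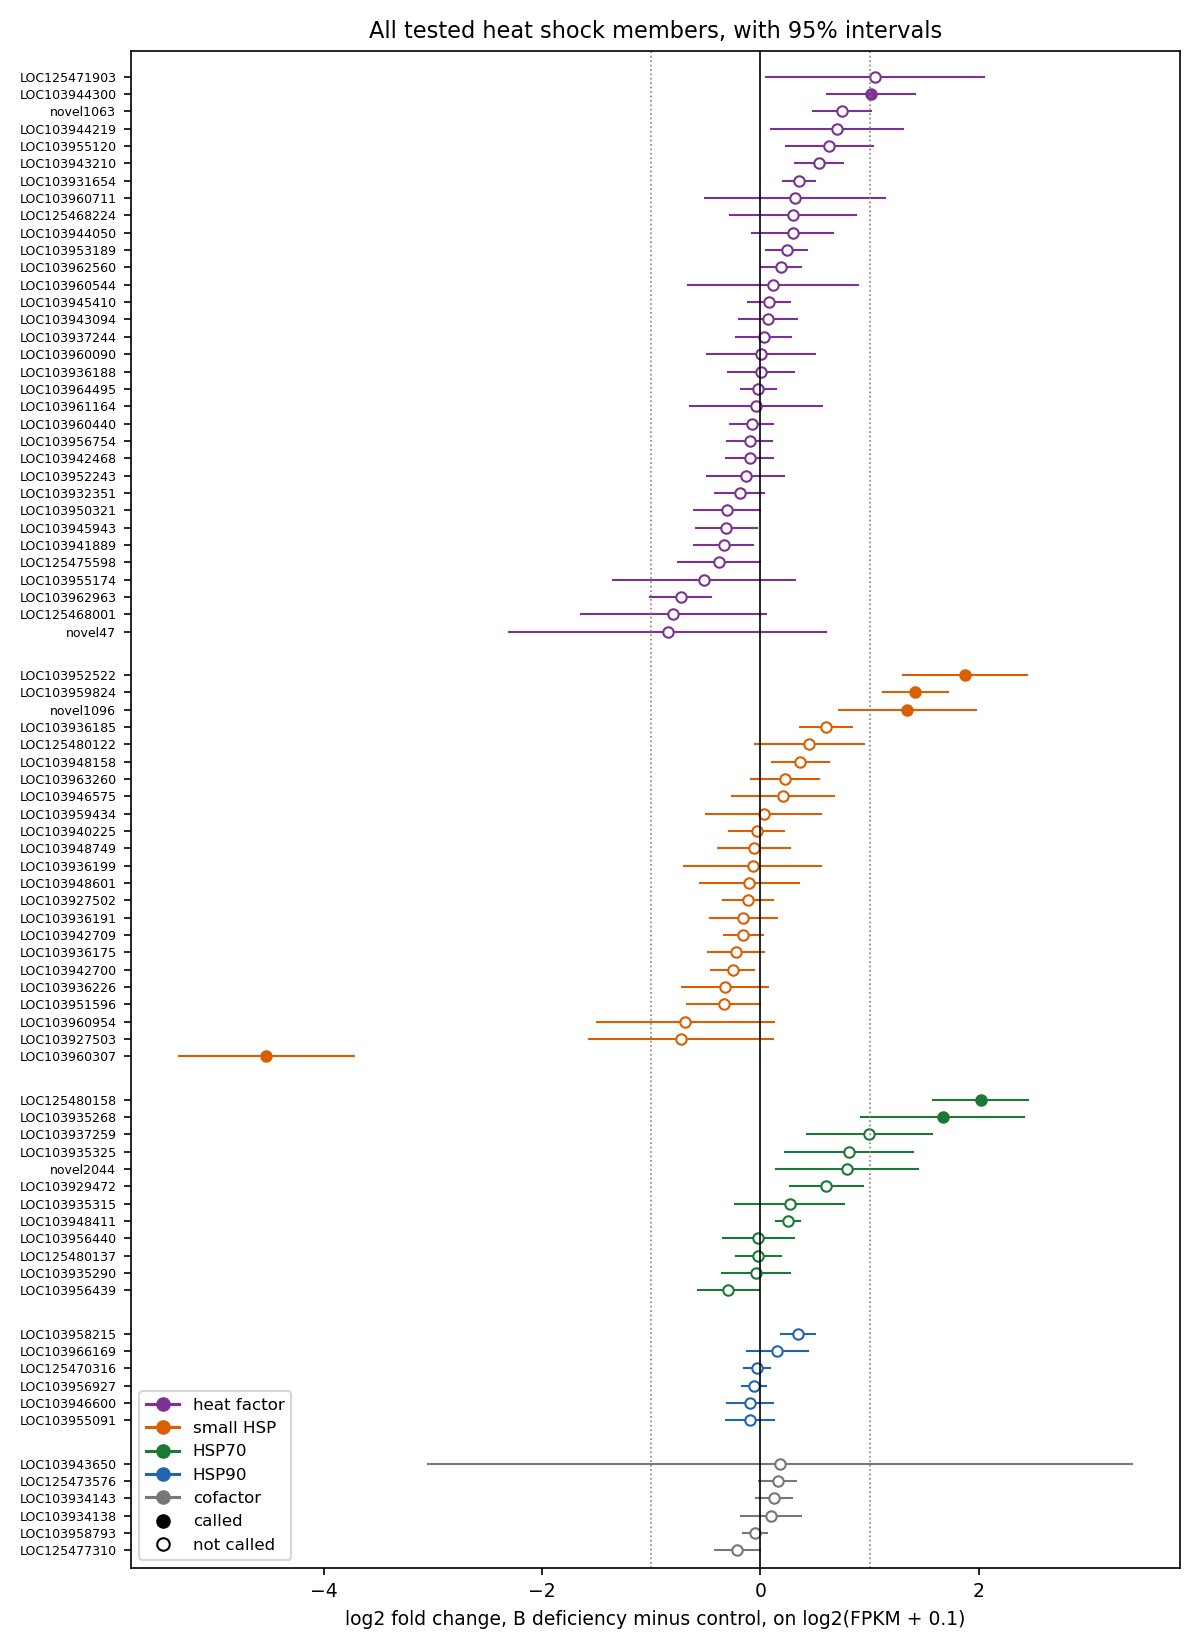
Log2 fold changes of the 80 tested members, B deficiency minus control on log2(FPKM + 0.1), with 95% intervals from limma (n = 3 libraries per group). Filled points are the 7 called genes, dotted lines mark the minimum fold of 1 on the log2 scale, and the HSP90 genes lie between -0.10 and 0.34.

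The 7 called genes were a class IV, a class II, a mitochondrial and a class V small HSP, a pair of HSP70 copies and the heat factor A-3-like. In all 7, the groups did not overlap. The calls were made on the same values, so this is no separate support for them. The called genes were mostly of low level. The 6 called higher had means over the 6 libraries from 1.06 to 27.2 FPKM, and together held 1.72% of the summed FPKM of the tested members. The most abundant members were HSP90 and HSP70 genes, and none of those above 100 FPKM was called.

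**Figure D2:**
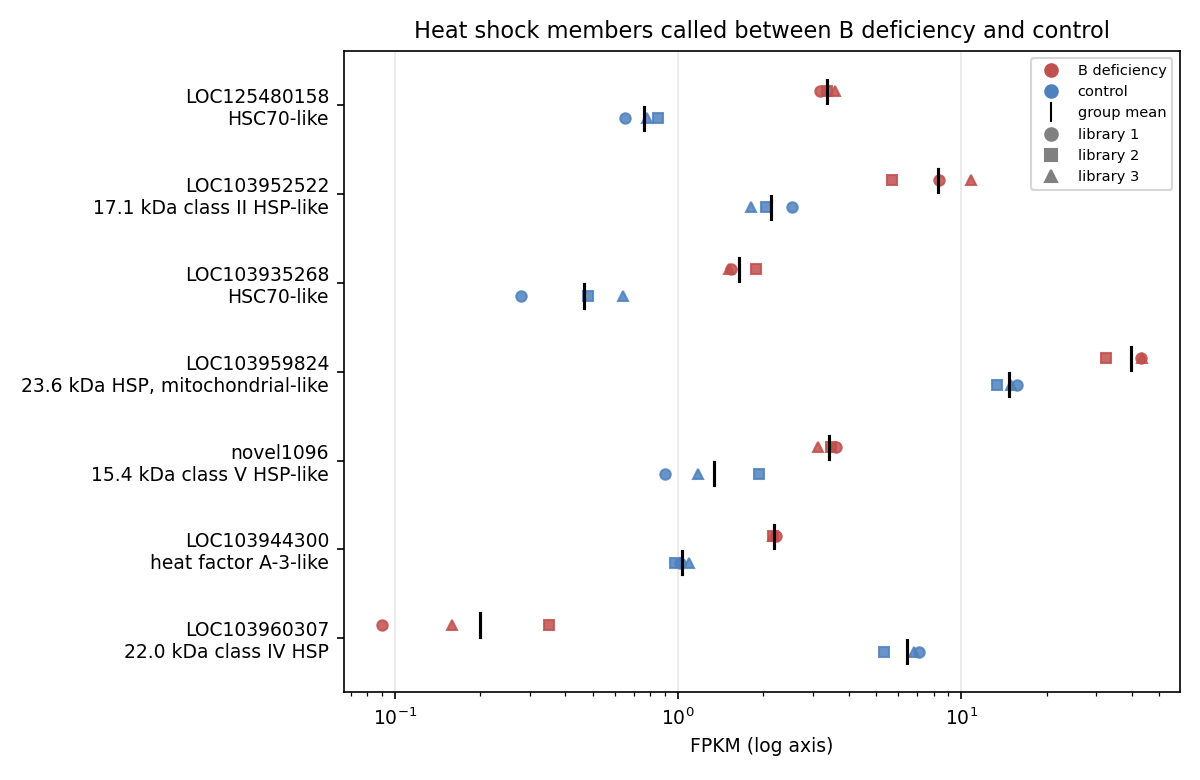
FPKM of the 7 called members in each library on a log axis, with B deficiency in red, the control in blue, a marker shape per library and black ticks at the group means. In each gene the points of the groups are separate, and LOC103960307 is the gene with the lower values in B deficiency.

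Small HSP genes had the widest spread of changes. Of 23 tested, 3 were called higher (13.04%, against 4.37% of all genes) and 1 lower (4.35%, against 3.83%), and the median log2 fold change was -0.07. The largest change was in LOC103960307, a 22.0 kDa class IV small HSP. Class IV proteins are known from soybean as residents of the endoplasmic reticulum. LOC103960307 had 0.09, 0.35 and 0.16 FPKM without B, against 7.11, 5.34 and 6.83 FPKM with B. All control libraries were thus far above the others, and the control mean was 32.1 times the B deficiency mean. The log2 fold change was -4.53 ± 0.342 (SE, limma adjusted p = 0.000156). It stayed between -4.87 and -4.24 with each library left out in turn. The B deficiency values lie near the pseudocount of 0.1, so the size of the fold depends on the pseudocount. The log2 fold change was -2.63 with a pseudocount of 1 and -5.13 with a pseudocount of 0.01. The other class IV gene, LOC125472501, had at most 0.1 FPKM in any library.

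LOC103959824, a 23.6 kDa small HSP of mitochondria, was the most abundant of the called genes. It had 43.2, 32.4 and 43.4 FPKM without B, against 15.7, 13.3 and 15.02 FPKM with B. B deficiency library 2 was lower than the others of its group, but every B deficiency library was far above every control library. The log2 fold change was 1.42 ± 0.127 (SE, limma adjusted p = 0.000314). The other mitochondrial genes, with a 26.5 kDa description, were near or at 0, with means of at most 0.14 FPKM in a group.

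Class I and class II small HSPs are the abundant cytosolic classes that heat induces in plants. LOC103952522, a 17.1 kDa class II gene, had 8.32, 5.69 and 10.8 FPKM without B, against 2.52, 2.05 and 1.81 FPKM with B. The B deficiency libraries varied among themselves, but the lowest was above the highest control library (log2 fold change 1.88 ± 0.242 SE, limma adjusted p = 0.00155). Among the other class II genes with the same description, 2 were tested and neither was called. LOC103927502 had 10.6, 9.71 and 10.7 FPKM without B, against 11.4, 10.03 and 12.2 FPKM with B (log2 fold change -0.12, 95% interval -0.35 to 0.11). LOC103927503 had 4.08, 4.35 and 9.75 FPKM without B, against 10.6, 11.7 and 6.49 FPKM with B. Here B deficiency library 3 lay within the control range, and the gene was not called (log2 fold change -0.73, limma adjusted p = 0.181). With B deficiency library 3 left out, the call became lower, at -1.13 (limma adjusted p = 0.0268). LOC103927502 and LOC103927503 share a database entry in the annotation, so reads may be split between them, which was not examined. The remaining 5 class II genes were not tested, and 2 of them were listed at 0 in all libraries.

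Among the class I genes, 10 of 13 were tested and none was called (against 8.19% of all genes called in either direction). Their log2 fold changes ran from -0.69 to 0.60 with a median of -0.16. LOC103936185, an 18.1 kDa protein and the most abundant small HSP, had 52.1, 62.5 and 54.0 FPKM without B, against 33.0, 37.0 and 41.2 FPKM with B. The groups did not overlap, and the log2 fold change of 0.60 ± 0.102 (SE, limma adjusted p = 0.00511) was below the minimum. LOC103936185 shares database entries with LOC103936199 and LOC103936175, whose log2 fold changes were -0.07 and -0.22. Reads may be split among these copies as well, which was not examined. In LOC125480122, the gene with the mixed description, the libraries without B were also all above the controls, with 7.20, 6.80 and 6.43 FPKM without B, against 3.45, 6.08 and 5.82 FPKM with B (limma adjusted p = 0.163). This gene shares a database entry with LOC103936191, whose log2 fold change was -0.16. The class I genes as a group summed to 188.6 ± 18.0 FPKM without B, against 181.0 ± 10.1 FPKM with B (SD, n = 3), which differed by less than the spread between libraries.

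The remaining small HSP classes held 1 more called gene. novel1096 is a locus that the table numbers itself and describes as a 15.4 kDa class V protein. It had 3.62, 3.47 and 3.12 FPKM without B, against 0.90, 1.93 and 1.18 FPKM with B, with no overlap (log2 fold change 1.35 ± 0.268 SE, limma adjusted p = 0.00978). On log2(FPKM + 1) it was 0.94, under the minimum. The second class V gene, LOC103948158, had 11.7, 10.7 and 11.9 FPKM without B, against 10.2, 8.70 and 7.82 FPKM with B. Its log2 fold change of 0.37 (limma adjusted p = 0.0478) was below the minimum fold, and leaving out single libraries raised the adjusted p to as much as 0.143. Genes of class III, which in Arabidopsis is nuclear, of class VI and of the chloroplast type were not called, with log2 fold changes from -0.10 to 0.21. Of 4 small HSP genes whose description gives no class, 2 were tested. LOC103951596 had 4.41, 4.51 and 3.62 FPKM without B, against 4.61, 5.44 and 5.87 FPKM with B, so the libraries without B lay below all controls, but the gene did not pass the test (log2 fold change -0.34, limma adjusted p = 0.122). The pair of peroxisomal genes lay below the minimum level. LOC108867028 had 0.48, 0.16 and 1.01 FPKM without B, against 0.15, 0 and 0 FPKM with B. LOC103959948 had 0.80, 0.60 and 0.18 FPKM without B, against 0, 0.18 and 0.18 FPKM with B. At such levels a few fragments decide the value.

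HSP70 proteins bind short hydrophobic stretches of unfolded clients, and cognate forms are made without stress. Of 12 tested cognate genes, 2 were called higher and none lower (16.7%, against 4.37% of all genes called higher). The median log2 fold change was 0.44, against -0.05 over all genes. Without the minimum fold, 6 of 12 were higher (against 12.0% of all genes), and in 7 of 12 the B deficiency libraries all exceeded the controls (58.3%, against 18.5%). LOC125480158 had 3.16, 3.35 and 3.59 FPKM without B, against 0.65, 0.85 and 0.78 FPKM with B. The groups were far apart relative to their spread (log2 fold change 2.02 ± 0.184 SE, limma adjusted p = 0.000337). LOC103935268 had 1.54, 1.89 and 1.51 FPKM without B, against 0.28, 0.48 and 0.64 FPKM with B (log2 fold change 1.67 ± 0.319 SE, limma adjusted p = 0.00835). On log2(FPKM + 1) the change of LOC103935268 was 0.86 and the call was lost.

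Further copies moved less. LOC103937259 had 2.25, 3.03 and 2.56 FPKM without B, against 1.52, 0.89 and 1.44 FPKM with B. Its groups did not overlap, but the log2 fold change, 0.995 with a limma adjusted p of 0.0221, lay just under the minimum fold. It was called in 6 of 15 alternative fits. LOC103937259 shares a database entry with LOC103935315, whose log2 fold change was 0.27. LOC103935325 had 2.71, 4.04 and 2.33 FPKM without B, against 1.72, 1.94 and 1.31 FPKM with B. Its log2 fold change was 0.81 (limma adjusted p = 0.0484), and without B deficiency library 2 it was 0.59 (adjusted p = 0.0792). LOC103929472 had 3.22, 3.14 and 3.46 FPKM without B, against 2.34, 1.94 and 2.09 FPKM with B, with a log2 fold change of 0.60 (limma adjusted p = 0.0186). With single libraries left out, the adjusted p of LOC103937259, LOC103935325 and LOC103929472 rose to as much as 0.0609, 0.144 and 0.0671, past the threshold.

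The abundant HSP70 copies changed little. LOC103948411, described as heat shock cognate 70 kDa protein 2, held 195, 204 and 197 FPKM without B, against 165, 172 and 164 FPKM with B. All B deficiency libraries were above all control libraries, by 1.19-fold on average (log2 fold change 0.25 ± 0.0462 SE, limma adjusted p = 0.0069). LOC125480137, with the same description, had 73.2, 61.8 and 76.2 FPKM without B, against 75.2, 67.4 and 70.7 FPKM with B. These values overlapped throughout (log2 fold change -0.02, 95% interval -0.23 to 0.19). LOC103956439 had the lowest fold change of the family, with 18.9, 13.6 and 17.4 FPKM without B, against 20.3, 20.6 and 19.8 FPKM with B (log2 fold change -0.29, limma adjusted p = 0.113), each library without B being below the controls. The summed level of the cognate genes was 326, 318 and 330 FPKM without B, against 292, 289 and 284 FPKM with B, a ratio of 1.12. LOC103948411 accounted for most of the difference. This sum is not that of all HSP70 genes. LOC103931072 and LOC103963573, described as mediator subunit 37e, carry the HSP70 domain but lie outside the rule. Their means were 774 and 556 FPKM without B, against 781 and 564 FPKM with B (log2 fold changes -0.01 and -0.02). Copies of the family are similar in sequence, and the estimation of expression divides reads among them, so single copies are less certain than the sum.

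**Figure D3:**
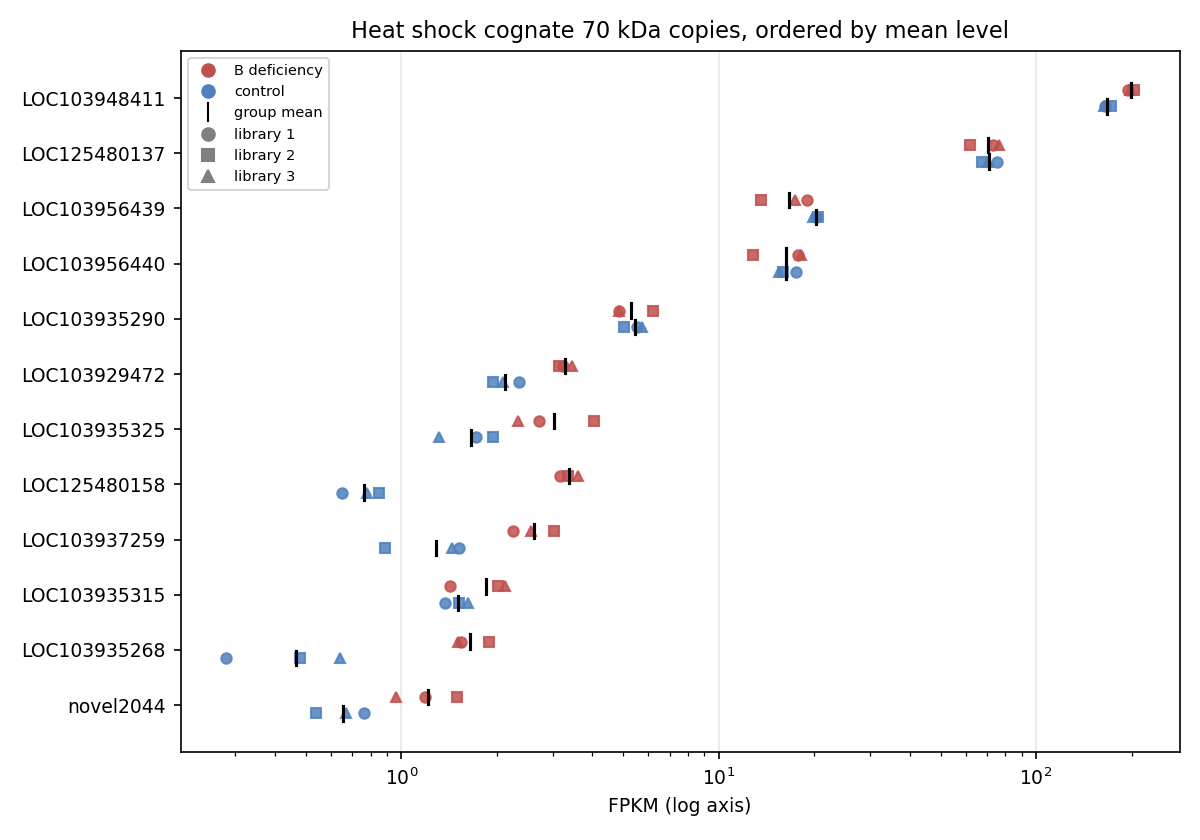
FPKM of the 12 tested heat shock cognate 70 kDa genes in each library on a log axis, ordered by mean level, with B deficiency in red, the control in blue and black ticks at the group means. The separated groups are mostly among copies below 5 FPKM, and the abundant LOC103948411 shows a small shift.

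HSP90 proteins act late in the folding of kinases, receptors and other clients, and were the most abundant members. None of the 6 genes was called (against 8.19% of all genes called in either direction), and their log2 fold changes ran from -0.10 to 0.34. LOC125470316, described as HSP90-2, had 602, 550 and 595 FPKM without B, against 600, 597 and 588 FPKM with B. The libraries overlapped, and the log2 fold change was -0.03 (95% interval -0.15 to 0.09). LOC103956927, the second HSP90-2 gene, had 308, 292 and 312 FPKM without B, against 321, 317 and 310 FPKM with B (log2 fold change -0.06, 95% interval -0.17 to 0.05). The HSP83 gene LOC103958215 was the 1 gene of the family with separate groups. Every B deficiency library thus lay above every control library in 16.7% of the family, against 18.5% of all genes. None lay below, against 26.6%. In LOC103958215 the values were as follows. It had 48.3, 51.0 and 55.7 FPKM without B, against 40.1, 41.8 and 39.9 FPKM with B (log2 fold change 0.34 ± 0.0661 SE, limma adjusted p = 0.00861). The mitochondrial LOC103955091 and the chloroplast LOC103946600 had log2 fold changes of -0.10 and -0.09, with adjusted p of 0.487 and 0.481 from limma. The family summed to 999 ± 39.1 FPKM without B, against 1013 ± 14.1 FPKM with B (SD, n = 3).

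**Figure D4:**
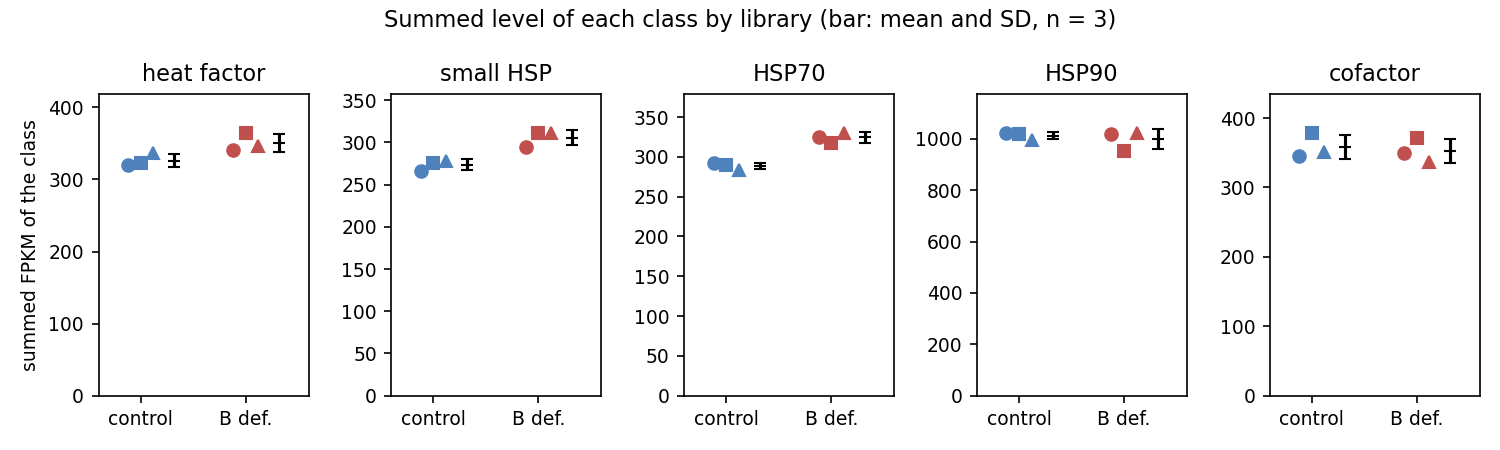
Summed FPKM of each class in each library, with the control in blue, B deficiency in red, a marker shape per library and black bars for mean and SD (n = 3). Heat factor, small HSP and HSP70 sums are higher in each B deficiency library than in each control library, and the sums of HSP90 and of the cofactors overlap.

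The summed level of the small HSP genes was 295, 311 and 311 FPKM without B, against 267, 276 and 278 FPKM with B. LOC103959824 alone differed by 25.0 FPKM and LOC103936185 by 19.2 FPKM. The sum was thus higher without B although the median log2 fold change was below 0. The heat factors summed to 341, 365 and 346 FPKM without B, against 319, 323 and 336 FPKM with B, a ratio of 1.07 with no overlap. No test was made on sums.

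Of the 33 heat factors tested, 1 was called higher and none lower (3.03%, against 4.37% of all genes called higher), and the median log2 fold change was 0.01. LOC103944300 is described as heat stress transcription factor A-3-like. Factor A3 of Arabidopsis acts in the heat and drought responses downstream of the DREB2A factor. LOC103944300 had 2.21, 2.17 and 2.16 FPKM without B, against 1.02, 0.98 and 1.09 FPKM with B. The libraries of a group were nearly equal and the groups were well apart, by 2.12-fold (log2 fold change 1.01 ± 0.173 SE, limma adjusted p = 0.00524). The fold lay just past the minimum. It was 0.98 without control library 2 and 0.65 on log2(FPKM + 1). The other A-3-like gene, LOC103955174, had 1.42, 0.81 and 0.65 FPKM without B, against 1.67, 1.58 and 0.92 FPKM with B, with overlapping groups. LOC125471903, an A-8-like factor, had the largest fold change of the family at 1.05, with 1.36, 3.24 and 1.27 FPKM without B, against 0.52, 0.85 and 1.18 FPKM with B. B deficiency library 2 was far above the others of its group, and the gene was not called (limma adjusted p = 0.112).

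A further 4 heat factors were higher at an adjusted p under 0.05 with less than the minimum fold. With LOC103944300, 5 of the 33 tested were higher without the minimum fold (15.15%, against 12.0% of all genes). Only 1 was lower (3.03%, against 15.4%). Factors of the A4 type are linked to responses to oxidative stress in Arabidopsis. The A-4c-like gene LOC103943210 had 14.6, 16.0 and 12.9 FPKM without B, against 10.1, 9.70 and 10.1 FPKM with B (log2 fold change 0.53, limma adjusted p = 0.006). The A-4b-like gene LOC103955120 had 17.0, 25.8 and 16.1 FPKM without B, against 12.2, 12.6 and 12.2 FPKM with B (log2 fold change 0.63, limma adjusted p = 0.0317). Its change was 0.42 without B deficiency library 2 (adjusted p = 0.00357), and it missed the threshold without control library 1, 2 or 3 (adjusted p = 0.0939, 0.0845 and 0.0916) and with no trend in limma (0.064). The class B genes novel1063, described as B-2a-like, and LOC103931654, described as B-3-like, completed the 4. novel1063 had 10.2, 12.3 and 11.8 FPKM without B, against 6.23, 6.50 and 7.58 FPKM with B (log2 fold change 0.75, limma adjusted p = 0.00322). LOC103931654 had 32.1, 32.5 and 31.4 FPKM without B, against 25.6, 23.5 and 26.1 FPKM with B (log2 fold change 0.35, limma adjusted p = 0.00623).

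In the other direction, the class C gene LOC103962963, described as C-1, had 3.38, 3.22 and 3.46 FPKM without B, against 5.41, 5.24 and 6.29 FPKM with B. The groups did not overlap, and the log2 fold change of -0.73 ± 0.118 (SE, limma adjusted p = 0.00405) did not reach the minimum. The A1 factors, the starters of the heat response in Arabidopsis, were expressed in both groups and none was called. The A-1d, A-1d-like, A-1b-like and A-1-like genes had control means from 5.23 to 12.8 FPKM and log2 fold changes of -0.08, -0.19, 0.01 and -0.31, with adjusted p from 0.0917 to 0.980 from limma. HSF30 is the tomato name of factor A2. The HSF30 gene LOC103952243 had 3.94, 5.67 and 5.14 FPKM without B, against 5.07, 5.43 and 5.56 FPKM with B (log2 fold change -0.14, 95% interval -0.49 to 0.22). The HSF30-like LOC125468001 had 0.34, 0.86 and 0.54 FPKM without B, against 0.89, 1.24 and 0.97 FPKM with B (log2 fold change -0.80, limma adjusted p = 0.146), and leaving out B deficiency library 2 gave a call of lower at -1.08 (adjusted p = 0.043). The A-2-like genes novel47 and LOC103951878 had at most 1.31 FPKM in any library, and neither was called. novel47 had the lowest fold change of the heat factors, with 1.13, 0.14 and 0.93 FPKM without B, against 1.23, 1.31 and 0.85 FPKM with B (log2 fold change -0.85, limma adjusted p = 0.351), and -0.11 without B deficiency library 2. The most abundant heat factor, the B-1-like gene LOC103964495, had 61.7, 67.3 and 63.5 FPKM without B, against 62.3, 62.5 and 70.3 FPKM with B (log2 fold change -0.02, 95% interval -0.18 to 0.14). B4 of Arabidopsis patterns root stem cells. The B-4 gene LOC103950321 and the B-4-like gene LOC125475598 had log2 fold changes of -0.31 and -0.38, with adjusted p of 0.123 and 0.126 from limma.

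**Figure D5:**
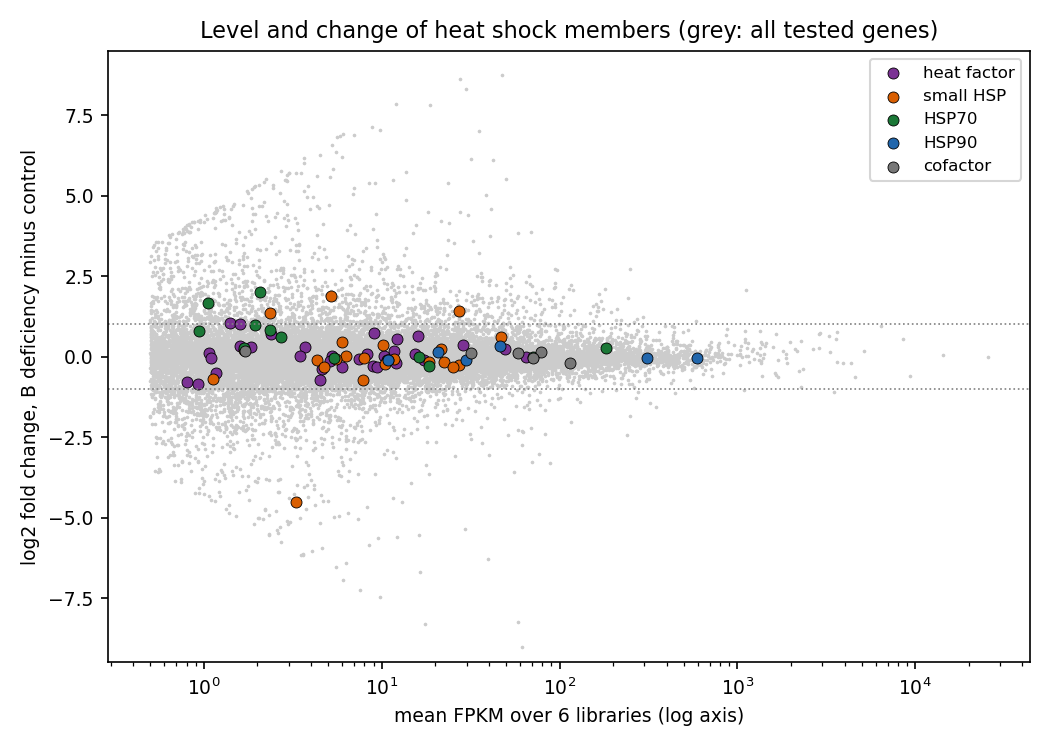
Mean FPKM over the 6 libraries (log axis) against the log2 fold change, B deficiency minus control, for the 80 tested members by class and for all 28129 tested genes in grey. Dotted lines mark the minimum fold, and members above 50 FPKM lie close to zero.

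Among genes with a mean of 0.5 to 5 FPKM, 5 of 28 members were called in either direction (17.9%), against 13.8% of all genes of that level. Between 5 and 20 FPKM, 1 of 31 members was called (3.23%, against 5.87%), and at 20 FPKM or more 1 of 21 (4.76%, against 4.34%). These shares are given as a description, with no test.

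None of the 6 cofactors was called (against 8.19% of all genes called in either direction), and all but LOC103943650 were abundant. Heat shock factor-binding proteins bind to active heat factors and dampen them. LOC125477310, the most abundant, had 109, 107 and 102 FPKM without B, against 110, 140 and 120 FPKM with B (log2 fold change -0.21, limma adjusted p = 0.122). LOC103943650 had 0.54, 1.08 and 0.73 FPKM without B, against 7.36, 0 and 0.48 FPKM with B, so control library 1 stood apart and no direction can be read (log2 fold change 0.18, 95% interval -3.05 to 3.4). The activators of the HSP90 ATPase, LOC125473576 and LOC103958793, had log2 fold changes of 0.16 and -0.05.

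Further genes carried the same domains without being named by the rule, 22 with the HSP20 domain, 33 with HSP70, 4 with HSP90 and 2 with the HSF domain. Of the 19 tested HSP20 genes among them, 1 was called higher and 1 lower, against 4.37% and 3.83% of all genes. The higher gene, LOC103958755, described as inactive protein restricted TEV movement 2-like, had 4.69, 4.01 and 6.50 FPKM without B, against 0.71, 0.88 and 1.76 FPKM with B. The lower gene, LOC103948107, is uncharacterized and had 2.58, 0.80 and 1.79 FPKM without B, against 5.96, 4.84 and 4.81 FPKM with B.

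Among genes outside the rule that are described as heat shock 70 kDa proteins, 18 were tested. Of these, 1 was called higher (5.56%, against 4.37% of all genes) and none lower. The median log2 fold change was 0.14. The called gene, LOC103949050, had 1.13, 1.64 and 0.95 FPKM without B, against 0.52, 0.26 and 0.49 FPKM with B (log2 fold change 1.36, limma adjusted p = 0.0275). HSP100 proteins of the ClpB type pull proteins out of aggregates. None of 10 tested was called (against 8.19% of all genes called in either direction). Its most abundant gene, the ClpB1-like LOC103930784, had 26.7, 26.2 and 24.9 FPKM without B, against 25.0, 26.7 and 25.0 FPKM with B. DnaJ proteins deliver clients to HSP70. Of 77 tested, 1 was called higher and 2 lower. The lower genes were LOC103927441, with 4.11, 3.69 and 3.47 FPKM without B, against 11.1, 11.7 and 12.4 FPKM with B, and novel769, with 4.51, 4.45 and 4.20 against 10.1, 14.8 and 14.9 FPKM. The higher gene was LOC103931488, described as dnaJ 11, with 31.9, 44.7 and 32.6 FPKM without B, against 15.8, 13.7 and 14.9 FPKM with B. Without the minimum fold, 12 DnaJ genes were higher (15.6%, against 12.0% of all genes) and 11 of 77 lower (against 15.4%). The most abundant, LOC103933608, had 391, 475 and 388 FPKM without B, against 557, 558 and 551 FPKM with B (log2 fold change -0.42, limma adjusted p = 0.00947). None of 30 tested chaperonin genes was called (against 8.19% of all genes called in either direction), and their median log2 fold change was -0.05.

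Of 30 tested genes of co-chaperones of HSP70 and HSP90 outside the rule, 1 was called higher and none lower, with a median log2 fold change of 0.00. The share called higher was 3.33%, against 4.37% of all genes. The called gene was LOC108868165, an FKBP65-like peptidyl-prolyl isomerase, a family of which the Arabidopsis protein works with HSP90 in the heat response. It had 23.4, 13.4 and 21.7 FPKM without B and was listed at 0, 0 and 0.21 FPKM with B (limma adjusted p = 9.98e-05). The FKBP62-like genes LOC103940680 and LOC103961387, of the same family, had log2 fold changes of -0.02 and -0.11.

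Chaperones of the endoplasmic reticulum were the related list with the highest median. Of 31 tested, 2 were called higher (6.45%, against 4.37% of all genes) and none lower. The median log2 fold change was 0.22. Without the minimum fold, 14 were higher (45.2%, against 12.0% of all genes) and 2 of 31 lower (against 15.4%). Luminal-binding protein is the HSP70 of the endoplasmic reticulum. LOC103935935 had 329, 344 and 324 FPKM without B, against 237, 243 and 237 FPKM with B (log2 fold change 0.48, limma adjusted p = 0.000415), and LOC103949272 had 207, 240 and 211 against 145, 152 and 148 FPKM (0.56, adjusted p = 0.000961). Endoplasmin is the HSP90 of this compartment, and LOC125479241 had 233, 230 and 231 FPKM without B, against 168, 160 and 162 FPKM with B (log2 fold change 0.50, limma adjusted p = 0.000273). The other endoplasmin gene, LOC103927703, changed less, with 121, 132 and 127 FPKM without B, against 104, 101 and 105 FPKM with B (0.30, adjusted p = 0.00571). All of these genes were below the minimum fold, and in each the groups were separate. The called genes were the calreticulin-3-like LOC103932480, with 9.39, 9.70 and 7.97 FPKM without B, against 4, 4.03 and 4.49 FPKM with B, and the protein disulfide-isomerase 5-3-like LOC103967267, with 3.16, 1.32 and 2.42 FPKM without B and listed at 0 in all libraries with B. The class IV small HSP LOC103960307, of the same compartment by its class, was called lower, as given above.

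Of 12 tested partners and known Arabidopsis targets of heat factors outside the rule, none was called higher and 1 was called lower. The share called lower was 8.33%, against 3.83% of all genes. LOC103959028, a galactinol synthase 2-like gene of raffinose synthesis, had 0.23, 0.34 and 0.56 FPKM without B, against 2.06, 2.10 and 2.46 FPKM with B (log2 fold change -2.33, limma adjusted p = 0.00193). The multiprotein-bridging factor 1c-like gene LOC103929437, a heat-responsive coactivator in Arabidopsis, had means of 17.9 FPKM without B, against 17.3 FPKM with B (log2 fold change 0.05, limma adjusted p = 0.800).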

How the data were processed

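FPKM values of 6 libraries were deposited with 2 decimals. By the study's methods, the authors used FastQC for read quality, STAR for mapping to the P. bretschneideri genome and RSEM for expression. The submitters' processing notes instead list HISAT2, Cufflinks (version 2.2.1) and the builds mm8 and mm9, which are mouse builds, so the tools behind the FPKM values are not certain. Control columns were assigned through the replicate number in each title. Columns of the authors' group means and ratios were not used. Counts and depth cannot be had from FPKM, so counting error is not shown.

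The groups were tested in limma (3.58.1 under R 4.3.3, lmFit and eBayes with a trend) on log2(FPKM + 0.1), with no covariate, over the 28129 genes averaging 0.5 FPKM or more. The paper's DESeq2 test needs counts and was not run. The fit was tested on simulated data. The planted changes were well past the minimum fold and left out the genes of lowest level. The simulation therefore does not cover calls near the minimum fold or at the lowest levels. It also drew all genes and libraries with the same setting of spread, so it does not give the error rate in these libraries. Tables were made with Python 3.11.15 and pandas 2.3.3. Alternatives were other pseudocounts, minimum levels, scalings, library weights, a replicate block, a fit with no trend, no minimum fold and each library left out. With 3 libraries against 3, an exact permutation test cannot go below 0.1. Genes named were the called members, the most abundant, highest and lowest fold change of each class, heat factors with an adjusted p under 0.05, and the most abundant copy of each called description, 25 in all. Other genes in the text were chosen after their values were seen. The members and lists were chosen with earlier results of these data known. No sequences were used.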

Additional observations from a re-analysis of the deposited data

How the results depend on the processing

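Of the 7 called members, 4 were called in all 15 alternative fits, namely LOC103960307, LOC103959824, LOC103952522 and LOC125480158. With log2(FPKM + 1), 3 members were called higher in place of 6, since LOC103944300 (log2 fold change 0.65), LOC103935268 (0.86) and novel1096 (0.94) then lay under the minimum fold. Without a minimum fold, 17 were higher and 2 lower. With a library left out, between 5 and 7 members were called higher and between 1 and 2 lower. The second lower call was LOC125468001 without B deficiency library 2 (-1.08) and LOC103927503 without B deficiency library 3 (-1.13), and LOC103944300 lost its call without control library 2 (0.98). Median-of-ratios scaling moved the median of all genes from -0.05 to 0.00 and called 7 members higher, and the median of the HSP90 genes then moved from -0.04 to 0.01. Without a minimum level, the median of the small HSP genes moved from -0.07 to 0.04. Over all genes, log2(FPKM + 1) called 896 higher and 664 lower, against 1229 and 1076. No named member changed direction in a call. Deviations of libraries with the same replicate number correlated at 0.04, 0.04 and -0.01 across genes. B deficiency libraries 1 and 2 correlated best with the control of their own number, and library 3 with control library 2. Such small values from 3 libraries per group cannot decide whether the replicate numbers pair the samples. With the replicate block, 6 members were called higher and 1 lower, as without it. Fragment counts were not available, so the precision at low FPKM is not known, which limits what can be said of genes near 1 FPKM.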
